A study of Mus musculus with 6 samples.

Results

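Heat shock proteins and DnaJ cochaperones were examined in the muscle of mice that lack *Tarsl2*, a threonyl-tRNA synthetase-like protein. The members were all protein-coding genes of the deposited count table whose symbol begins with Hsp followed by a, b, d, e, h or a digit, or with Dnaj. This gave 74 members among 22027 protein-coding genes and 53084 rows in all. By general knowledge of the proteins, 48 members were placed in the cytosol or nucleus, 15 in the endoplasmic reticulum (ER), 10 in mitochondria and 1 in the cilium. RNA of muscle was sequenced from 3 *Tarsl2*+/+ mice and from 3 *Tarsl2*-/- mice, with 1 library per mouse. The mice are recorded as male C57BL/6 animals of 6 weeks kept on standard chow. The study's methods for the sequencing give this age but neither sex nor diet. The *Tarsl2*-/- line was made in C57BL/6J zygotes by CRISPR/Cas9, with a pair of guides that removed a fragment holding exon 3, so that the deletion is present in the whole body and not in muscle fibres alone. Which muscle was taken is not given in the sources used here, and the sample records name a retinal dissection in place of a muscle. The genes of muscle were nevertheless abundant, and 3 retinal markers had 0 counts in every library, whereas *Rom1*, a further one, had 257 to 370.

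Heat shock proteins are molecular chaperones that bind unfolded or misfolded proteins and help them to fold, to cross membranes or to be degraded. HSP70 proteins bind and release clients by hydrolysing ATP, the DnaJ (HSP40) proteins deliver clients and speed up that hydrolysis, HSP110 proteins exchange the nucleotide, and HSP90 acts on clients later in their folding. The small heat shock proteins hold unfolded proteins without using ATP and are plentiful in skeletal muscle, where they sit at the Z-disc and the contractile filaments. Cytosolic stress acts on these genes through heat shock factor and the heat shock element, and stress in the ER acts through the unfolded protein response and the ER stress response element.

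Promoter sequences of the members were read to place those elements. Of the 74 members, 60 had an entry in the RefSeq promoter table (mouse build GRCm38.p6, 250 bases before to 50 bases after the start of transcription), which holds 27025 genes. The ER stress response element, CCAAT followed after 9 bases of any kind by CCACG, on either strand, was found in 3 of the 60 members (5.0%) and in 37 of all promoters (0.137%). The 3 members were *Hspa5*, *Hsp90b1* and *Dnajc3*, all of the ER. They encode BiP, which is the HSP70 of the ER, GRP94, which is its HSP90, and p58IPK, a cochaperone of BiP. The element is given here in capitals with 20 bases on either side, on the strand of the gene, since these 3 genes are described together further on. The *Hspa5* stretch is chr2:34772005-34772063 on the plus strand, the *Hsp90b1* stretches are chr10:86705618-86705676 and chr10:86705513-86705571 on the minus strand, and the *Dnajc3* stretch is chr14:118937807-118937865 on the plus strand. In the second *Hsp90b1* stretch the element lies on the opposite strand to the gene.
Hspa5: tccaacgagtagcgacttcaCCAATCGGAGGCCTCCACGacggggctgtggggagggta
Hsp90b1, upstream element: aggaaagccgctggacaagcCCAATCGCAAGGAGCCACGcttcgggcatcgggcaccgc
Hsp90b1, element nearer the start: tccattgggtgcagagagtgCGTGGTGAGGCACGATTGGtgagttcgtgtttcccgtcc
Dnajc3: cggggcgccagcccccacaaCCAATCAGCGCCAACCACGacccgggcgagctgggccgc

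The heat shock element of 3 inverted units, GAA, TTC and GAA, or TTC, GAA and TTC, with 2 bases of any kind between the units and on either strand, was found in 4 of the 60 members (6.67%), namely *Dnajb6*, *Hsph1*, *Hspd1* and *Hspe1*, and in 179 of all promoters (0.662%). The shorter form of 2 units, GAANNTTC or TTCNNGAA, which every longer match contains, was found in 16 members (26.7%) and in 17.0% of all promoters, and among the members with a match were *Hspb8*, *Hspb1*, *Hspa1a*, *Hspa1b* and *Dnaja4*. *Hspd1* and *Hspe1*, which encode the mitochondrial chaperonin HSP60 and its lid HSP10, are transcribed away from each other from starts that lie 215 bases apart, and the same 2 overlapping matches lie in both windows (RefSeq lists a further start for *Hspd1*, whose window held no match). The whole interval between the starts (chr1:55087933-55088147, read on the plus strand, the strand of *Hspe1*) is shown because the expression of this pair is compared further on. Capitals mark the overlapping matches to the element, the first base of which is at position -89 from the *Hspe1* start.
Hspd1 and Hspe1, shared interval: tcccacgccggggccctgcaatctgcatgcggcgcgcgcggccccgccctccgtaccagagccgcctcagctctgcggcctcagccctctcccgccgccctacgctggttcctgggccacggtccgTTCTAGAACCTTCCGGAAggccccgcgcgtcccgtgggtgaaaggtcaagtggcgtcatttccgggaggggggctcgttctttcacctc

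A match is a run of letters in these windows and does not show that a factor binds there.

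Of the 74 members, 66 had enough counts to be tested and 1 of these differed between the genotypes at an adjusted p under 0.05. This was *Hspb8*, a small heat shock protein, which fell in *Tarsl2*-/- muscle. No member was called higher. Among all 15075 tested genes, 342 (2.27%) were called, 135 of them higher (0.896%) and 207 lower (1.37%). With DESeq2, which the study itself used, in place of edgeR 4 of the 66 tested members were called, and 719 of all 15075 genes (4.77%). Without the filter on low counts 7 members were called, and 1437 of the 25553 genes then tested (5.62%). At an unadjusted p under 0.05 there were 12 members higher and 8 lower, together 30.3% of those tested, compared with 19.8% of all tested genes (9.57% higher and 10.2% lower). In 24 members (36.4%) the genotypes did not overlap, with 14 above and 10 below in *Tarsl2*-/- muscle, compared with 24.6% of all tested genes (12.6% above and 12.0% below). The members were chosen for their names and not tested as a group, so these shares are descriptions.

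The direction was mixed. Estimates were above 0 for 30 members and below 0 for 36, and the median was -0.011 on the log2 scale (*Tarsl2*-/- over *Tarsl2*+/+), compared with 0.0025 over all tested genes. The median size of the change was 0.16 on the log2 scale, against 0.17 for all tested genes. All tested members but *Hspa1a* had an estimate between -0.5 and 0.5, as did 88.5% of all tested genes. The standard error of a member's log2 fold change was 0.10 at the median, and the coefficient of variation between mice was 8.12% in *Tarsl2*+/+ and 7.47% in *Tarsl2*-/- muscle at the median of the members. By compartment, the median log2 fold change was -0.016 for the 41 tested members of the cytosol, -0.046 for the 14 of the ER and 0.17 for the 10 of mitochondria.

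**Figure D1:**
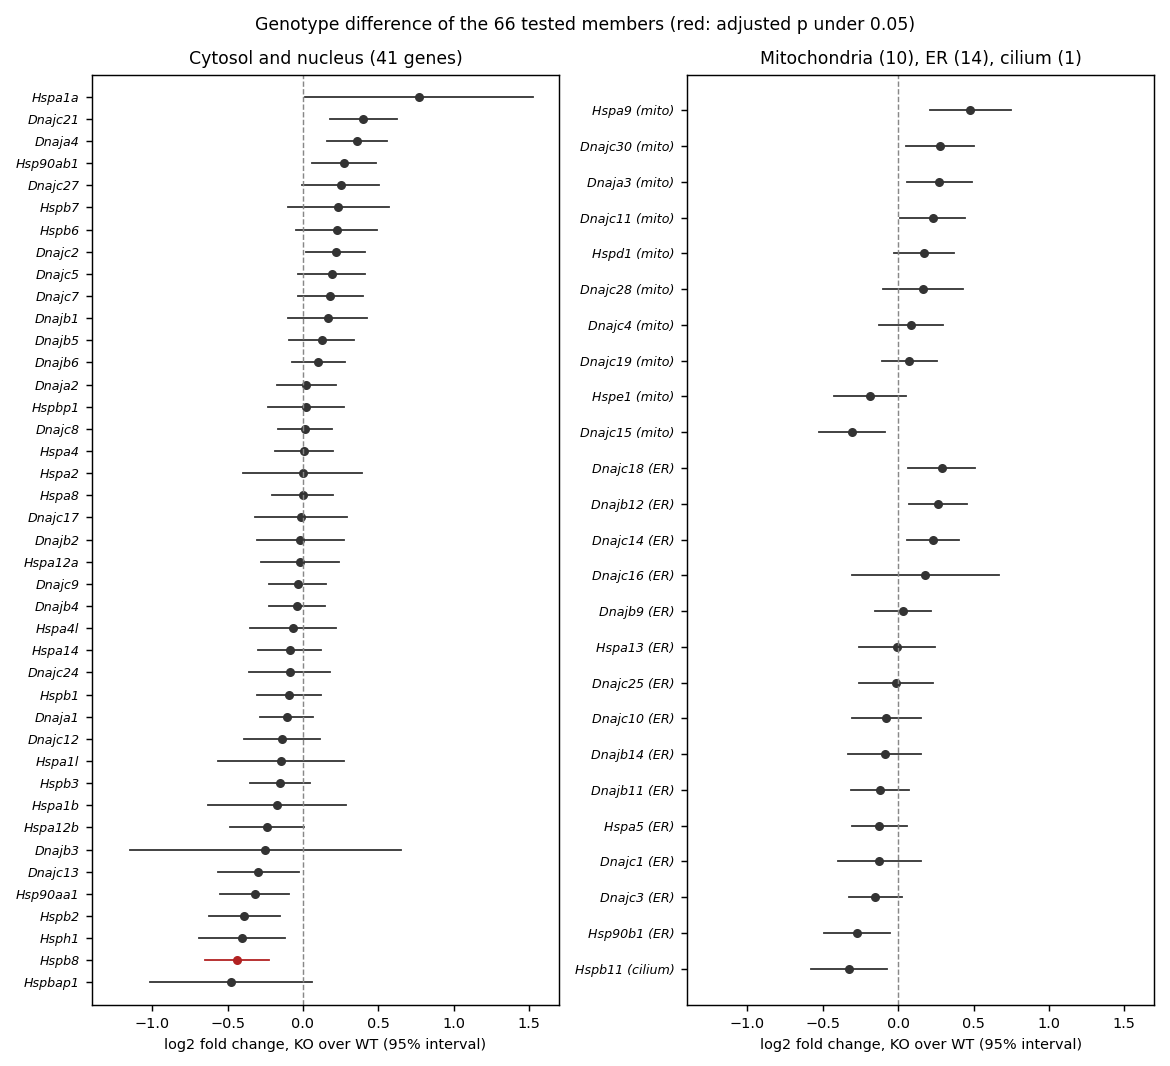
The log2 fold change (Tarsl2-/- over Tarsl2+/+) of each of the 66 tested members on the horizontal axis, with its 95% interval as a line, for the cytosol and nucleus on the left and for mitochondria, ER and cilium on the right. Hspb8, in red at -0.44, is the member with an adjusted p under 0.05, and 8 of the 10 mitochondrial members lie above 0.

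The 8 members that could not be tested were at or near the lower limit of detection. *Dnajb7*, *Dnajb8* and *Dnajc5g*, a cysteine string protein, had 0 counts in all 6 libraries, where 3 counts, the limit that a count of 0 allows, correspond to 0.146 to 0.187 CPM (counts scaled to the normalised library size). *Dnajc22* and *Dnajc5b* had at most 1 count. *Hspb9*, a small heat shock protein known from testis, had 2 to 4 counts, and *Dnajc6*, which encodes the clathrin-uncoating protein auxilin, had 1 to 5. *Dnajb13*, an axonemal protein, had 4 to 13 counts and overlaps *Ucp2* on the other strand. Several of these genes are known from testis or nerve.

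The levels spanned a wide range. Per kilobase of the deposited gene length, the normalised level was highest for *Dnajc15*, at 381 CPM per kb, followed by *Hspe1* (274), *Hsp90ab1* (226), *Hspa8* (222), *Hspb6* (189), *Hspb8* (139), *Hspb1* (117) and *Hspb2* (88.3). The place of *Dnajc15* rests on its deposited length of 648 bases. With the exon length of 6513 bases in the GENCODE vM21 annotation its level was 37.9 CPM per kb and its rank 13 of the tested members, whereas 65 of the 74 members had the same length in both. The range of each of these 8 members over the 6 mice overlapped that of its neighbours in this order. These ranges pool the mice and both genotypes. Neighbours were not compared within each mouse, so a pair may still keep its order in every mouse. Small heat shock proteins took 4 of the 8 highest places, and the lowest tested member was *Hspa1a*, a stress-inducible HSP70, at 0.539 CPM per kb. All members together made up 0.585% of the reads.

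**Figure D2:**
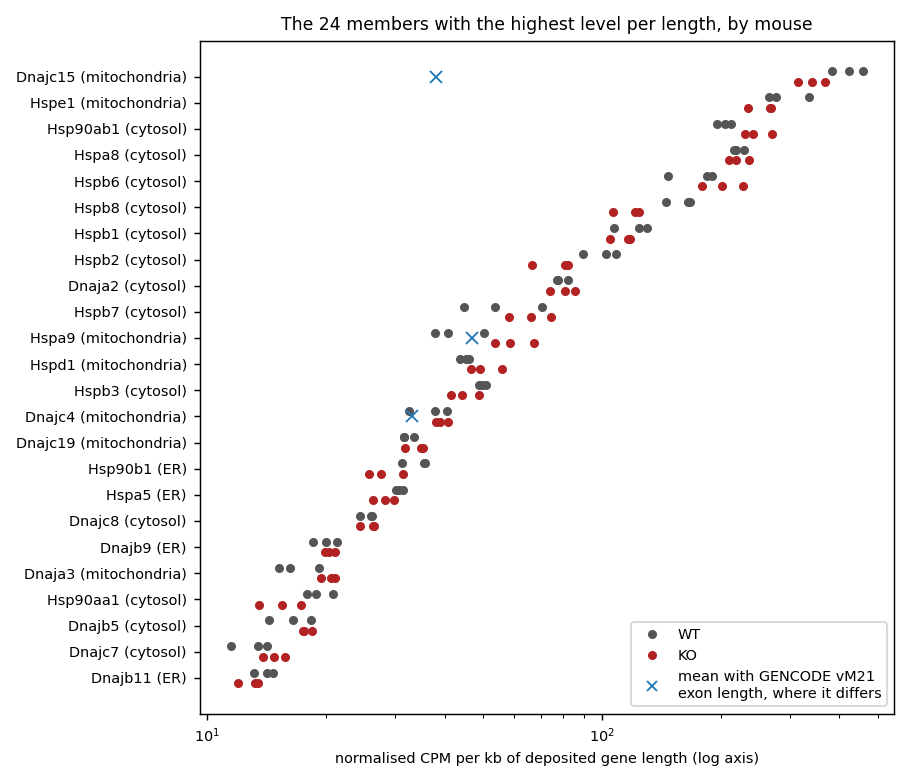
Level per length in each mouse (normalised CPM per kb of the deposited gene length, log axis) for the 24 members with the highest mean, grey for Tarsl2+/+ and red for Tarsl2-/-. Blue crosses give the mean with the GENCODE vM21 exon length where it differs, which moves Dnajc15 from 381 to 37.9 CPM per kb.

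Other genes of the tissue were read as well. Some separated by genotype and others overlapped. The share called over all tested genes was 2.27%. *Tarsl2* itself averaged 27.7 ± 4.0 CPM (SD, n = 3) in *Tarsl2*+/+ and 1.97 ± 0.231 in *Tarsl2*-/- muscle, and the genotypes did not overlap. All 10 leukocyte markers were lower, 6 of them at an adjusted p under 0.05, and their summed level was 415 to 481 CPM in *Tarsl2*+/+ and 226 to 286 in *Tarsl2*-/- mice. All 7 measured erythrocyte markers were lower in estimate with none called (4749 to 10394 against 4167 to 4537 CPM). All 10 slow-fibre markers were higher in estimate with none called, and their sums overlapped (1079 to 1861 against 1531 to 2280 CPM). Of 9 tested fast-fibre markers 7 were higher in estimate and 2 were called. The remaining listed marker, *Tnnc2*, had 2 to 4 counts per library, whereas *Tnni2* of the same list had 179223 to 229620. Whether the low count of *Tnnc2* reflects its level was not tested, nor was this tested for members with few counts. Of 8 general muscle markers 7 were higher in estimate and 2 were called (44078 to 45689 against 48677 to 55567 CPM). The 10 immediate early genes, which respond quickly to stress or handling, were 4 higher and 6 lower with none called. Their sums overlapped (315 to 419 against 288 to 412 CPM). None of these markers was at 0 in every library, and their part in the members' values was not tested. In whole tissue, fewer cells of a type and less RNA per cell cannot be told apart. Library totals were 16176591 to 20123767 counts.

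Among the small heat shock proteins, *Hspb8* fell and no other member was called. HSPB8 binds the cochaperone BAG3 and acts in the removal of damaged filament proteins at the Z-disc. *Hspb8* (chr5:116408491-116422864, minus strand) was at 322.5, 325.5 and 284.0 normalised CPM in *Tarsl2*+/+ mice 583, 584 and 595, and at 242.9, 237.4 and 208.6 in *Tarsl2*-/- mice 588, 589 and 591. Each *Tarsl2*-/- mouse was below each *Tarsl2*+/+ mouse, and the means were 311 ± 23.2 and 230 ± 18.4 CPM (SD, n = 3). The log2 fold change was -0.44 (standard error 0.10), with an adjusted p of 0.0444 in the edgeR fit over all genes and a 95% interval from -36.3% to -14.3%. This call lay close to the threshold and was lost when any 1 of the 6 mice was left out, with adjusted p between 0.0541 and 0.152 and log2 fold changes between -0.50 and -0.37.

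*Hspb2* and *Hspb3* encode a pair of muscle proteins that assemble with each other. *Hspb2* was at 85.5, 74.6 and 90.6 CPM in *Tarsl2*+/+ and at 68.5, 55.4 and 67.3 CPM in *Tarsl2*-/- mice. The genotypes did not overlap, and the log2 estimate of -0.39 did not pass the test (standard error 0.11, adjusted p = 0.0806), though it did without *Tarsl2*+/+ mouse 584 (-0.47, adjusted p = 0.0410) and with DESeq2 (adjusted p = 0.0322). *Hspb2* shares its locus with *Cryab* on the other strand, which encodes a further small heat shock protein and had a log2 estimate of -0.14 (adjusted p = 0.520). *Hspb3* was at 38.9, 39.7 and 38.2 CPM against 38.1, 34.6 and 32.5. The *Tarsl2*-/- mice were again all below, although mouse 588 lay just under the lowest *Tarsl2*+/+ mouse, and the log2 fold change was -0.15 (adjusted p = 0.379). *Hspb6*, the HSP20 of muscle, was at 338, 426 and 437 CPM against 464, 525 and 414, so that the genotypes overlapped (log2 fold change 0.22, adjusted p = 0.344). *Hspb1*, which encodes HSP25, was at 128, 134 and 111 CPM against 121, 120 and 108 and also overlapped (-0.09, adjusted p = 0.646). *Hspb7*, a protein of heart and skeletal muscle, was at 124, 149 and 196 CPM against 161, 206 and 184 (0.23, adjusted p = 0.427). Of the 6 tested small heat shock proteins 2 were thus above 0 in estimate, 4 below 0, and 3 without overlap, as were 24.6% of all tested genes.

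The HSP90 genes of the cytosol had estimates of opposite sign. *Hsp90ab1*, the constitutive form, was at 616, 588 and 637 CPM in *Tarsl2*+/+ mice and at 691, 723 and 809 CPM in *Tarsl2*-/- mice. All *Tarsl2*-/- mice were above, with a log2 estimate of 0.27 (standard error 0.10) and an adjusted p of 0.149. *Hsp90aa1*, the stress-inducible form, was at 74.3, 70.7 and 82.2 CPM against 68.0, 60.8 and 53.3. All *Tarsl2*-/- mice were below, with a log2 estimate of -0.32 (standard error 0.10) and an adjusted p of 0.126. Neither passed the test. The ratio of *Hsp90ab1* to *Hsp90aa1* was 8.29, 8.32 and 7.76 in *Tarsl2*+/+ and 10.2, 11.9 and 15.2 in *Tarsl2*-/- muscle.

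None of the cytosolic HSP70 genes separated the genotypes, where 24.6% of all tested genes did. Of 8 tested, 1 was above 0 and 7 below 0 in estimate, and the genotypes overlapped in all 8. *Hspa8*, the constitutive HSC70 and the member with the highest CPM, was at 941, 931 and 987 CPM in *Tarsl2*+/+ and at 941, 903 and 1014 CPM in *Tarsl2*-/- mice. Its 95% interval ran from -13.2% to 15% (adjusted p = 0.997). The stress-inducible genes *Hspa1a* and *Hspa1b* are near-identical copies, and reads may have been split between them by the counting. *Hspa1a* had 26, 16 and 22 counts in *Tarsl2*+/+ and 33, 46 and 28 counts in *Tarsl2*-/- libraries (log2 fold change 0.77, standard error 0.34, adjusted p = 0.243). *Hspa1b* had 69, 60 and 59 counts against 60, 53 and 52 (-0.17, adjusted p = 0.701). Summed, they came to 4.61 ± 0.821 CPM (SD, n = 3) and 5.08 ± 1.15 CPM, and the genotypes overlapped. Among the nucleotide exchange factors, *Hsph1*, the stress-inducible HSP110, was at 38.2, 35.6 and 46.0 CPM against 34.8, 30.3 and 25.5. The *Tarsl2*-/- mice were all below, and the log2 estimate of -0.41 did not pass the test (standard error 0.13, adjusted p = 0.119). Its relatives *Hspa4* and *Hspa4l* had log2 estimates of 0.0082 (adjusted p = 0.977) and -0.067 (adjusted p = 0.831).

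Of the cytosolic and nuclear DnaJ genes, 20 were tested and none was called, where 2.27% of all tested genes were called. *Dnajc21*, whose product acts in ribosome biogenesis, was at 33.4, 39.8 and 38.8 CPM in *Tarsl2*+/+ and at 54.7, 47.2 and 46.2 CPM in *Tarsl2*-/- mice. The genotypes did not overlap, and the log2 fold change was 0.40 (standard error 0.10, adjusted p = 0.0659). *Dnaja4*, a stress-inducible DnaJ protein, was at 28.7, 29.7 and 29.2 CPM against 36.3, 35.1 and 40.9. Here too every *Tarsl2*-/- mouse was above, with a log2 estimate of 0.36 (standard error 0.09, adjusted p = 0.0641). *Dnajb1*, the main stress-inducible DnaJ protein of the cytosol, was at 25.4, 20.7 and 18.4 CPM against 23.2, 25.1 and 23.9 and overlapped (0.17, adjusted p = 0.482). *Dnajb6*, a Z-disc protein that is mutated in a limb-girdle muscular dystrophy, was at 65.0, 65.0 and 67.7 CPM against 69.1, 68.1 and 74.8. Its genotypes were just separated, with a log2 estimate of 0.10 (adjusted p = 0.524). *Dnaja2* was the DnaJ gene of the cytosol with the highest level, at 220 to 255 CPM over the 6 mice, and had a log2 estimate of 0.022 (adjusted p = 0.928).

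The inducible genes that heat shock factor is best known for had estimates on both sides of 0. Of *Hspa1a*, *Hspa1b*, *Hsph1*, *Dnajb1*, *Hsp90aa1* and *Hspb1*, *Hspa1a* and *Dnajb1* were above 0 in estimate and the others below 0. *Hsph1* and *Hsp90aa1* were the ones without overlap, where 24.6% of all tested genes did not overlap. *Hsf1*, the factor itself, had a log2 estimate of 0.16 (adjusted p = 0.460). *Bag3*, a cochaperone that is induced with them and binds HSPB8, was at 71.0, 66.4 and 78.8 CPM in *Tarsl2*+/+ and at 62.3, 59.9 and 57.4 CPM in *Tarsl2*-/- mice. The *Tarsl2*-/- mice were all below, with a log2 estimate of -0.27 (adjusted p = 0.131). *Stub1*, the ubiquitin ligase of the same complex, was at 32.4, 37.9 and 38.1 CPM against 41.8, 42.2 and 47.3 and was above in all *Tarsl2*-/- mice (0.28, adjusted p = 0.149). In the whole list of 29 heat shock factors and cytosolic cofactors, 14 were above 0 and 15 below 0 with a median of -0.0047, 4 were above and 4 below without overlap (12.6% and 12.0% of all tested genes), and none was called. Among 14 subunits of the cytosolic chaperonin TRiC and of prefoldin, 5 were above 0 and 9 below 0 with a median of -0.079, and none was called, the smallest adjusted p being 0.0596 for *Tcp1* (log2 fold change 0.37).

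**Figure D3:**
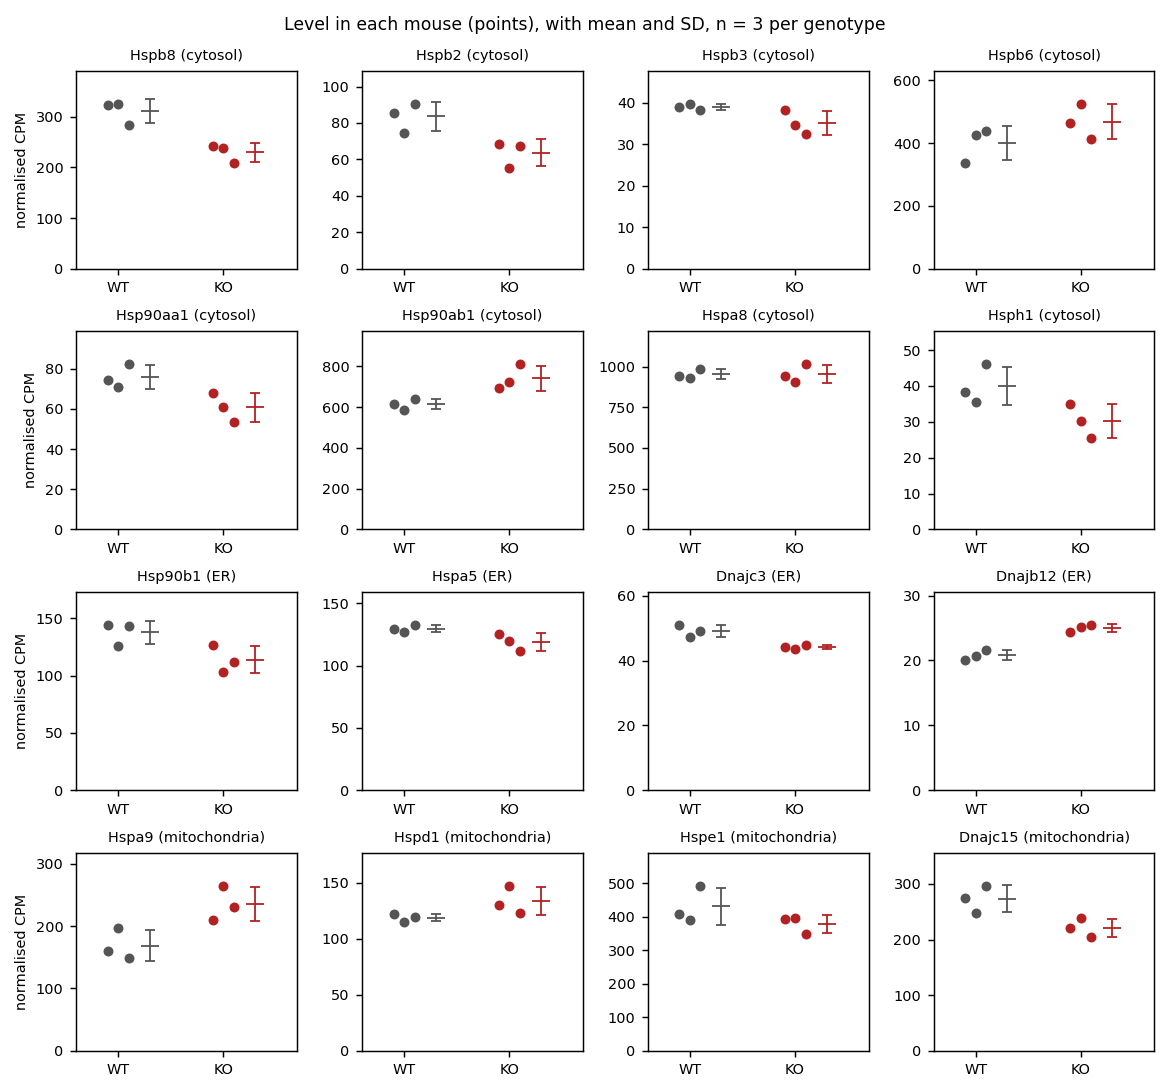
Level in each mouse (normalised CPM on the vertical axis, starting at 0) for 16 members of the cytosol, ER and mitochondria, with the mean and SD of the 3 mice of each genotype beside the points. Hspb8 separates at 284.0 to 325.5 against 208.6 to 242.9 CPM, whereas Hspa8 overlaps at 931 to 987 against 903 to 1014 CPM.

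In the ER, most members of the lumen were below 0 in estimate, those of the membrane lay on both sides of it, and none was called. This division was made after the values were seen and is given as a description. Of the 7 members of the lumen 1 was above 0 and 6 below 0 in estimate, with a median log2 estimate of -0.12. Of the 7 tested members of the membrane 4 were above 0 and 3 below 0, with a median of 0.18. *Hspa5* was at 129, 127 and 133 CPM in *Tarsl2*+/+ and at 126, 120 and 112 CPM in *Tarsl2*-/- mice. The *Tarsl2*-/- mice were all below, with a log2 estimate of -0.12 (standard error 0.09, adjusted p = 0.441). *Hsp90b1* was at 144, 126 and 143 CPM against 126, 104 and 112, where *Tarsl2*-/- mouse 588 lay just above the lowest *Tarsl2*+/+ mouse (-0.27, standard error 0.10, adjusted p = 0.159). *Gm15344* and *Gm25745* overlap *Hsp90b1* on the same strand. *Dnajc3* was at 51.0, 47.4 and 49.0 CPM against 44.3, 43.5 and 44.8. The genotypes did not overlap, and the log2 fold change was -0.15 (adjusted p = 0.319). These are the 3 genes whose promoters hold the ER stress response element printed above, and each was below 0 in estimate without passing the test.

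*Dnajb9*, which encodes ERdj4 and is a known target of the unfolded protein response, was at 51.1, 47.3 and 54.3 CPM in *Tarsl2*+/+ and at 53.7, 50.6 and 52.0 CPM in *Tarsl2*-/- mice and overlapped (0.034, adjusted p = 0.872). *Dnajb11*, the secreted cochaperone ERdj3, had a log2 estimate of -0.12 (adjusted p = 0.484). In the membrane, *Dnajb12*, which acts with HSP70 in the degradation of membrane proteins, was at 20.1, 20.7 and 21.6 CPM against 24.4, 25.1 and 25.5. Each genotype spread over less than 2 CPM and the genotypes did not overlap, with a log2 estimate of 0.26 (standard error 0.09, adjusted p = 0.131). *Dnajc14* was at 41.0, 43.3 and 43.9 CPM against 50.3, 49.1 and 51.2 and was likewise above in all *Tarsl2*-/- mice (0.23, adjusted p = 0.141), though it overlaps *Sarnp* on the same strand. *Dnajc18* was at 12.1, 13.2 and 12.8 CPM against 14.9, 15.5 and 16.1 (0.29, adjusted p = 0.149). The close relative of *Dnajb12*, *Dnajb14*, was at 13.9 to 15.5 CPM against 12.8 to 15 and overlapped (-0.089, adjusted p = 0.705).

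Other genes of ER folding and the unfolded protein response were mostly lower in estimate. Of 28 tested, 8 were above 0 and 20 below 0 with a median log2 estimate of -0.15, 2 were above and 7 below without overlap (12.6% and 12.0% of all tested genes), and none was called. The smallest adjusted p was 0.0846, for the disulfide isomerase *Pdia3* (-0.34). The factors of the response lay on both sides of 0. *Atf4* had a log2 estimate of 0.15 (adjusted p = 0.359), *Xbp1* one of 0.27 (adjusted p = 0.193) and *Ddit3* one of -0.22 (adjusted p = 0.393), while *Atf6* (0.024, adjusted p = 0.959) and *Ern1* (0.35, adjusted p = 0.277) were above 0 and *Eif2ak3* (-0.16, adjusted p = 0.536) below 0. The summed level of the ER members was 586 ± 15.6 CPM (SD, n = 3) in *Tarsl2*+/+ and 555 ± 21.4 CPM in *Tarsl2*-/- muscle and overlapped.

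In mitochondria, 8 of the 10 members were above 0 in estimate, 5 were above and 1 below without overlap (12.6% and 12.0% of all tested genes), and none was called. *Hspa9*, which encodes mortalin, the HSP70 of the matrix and the motor of protein import, was at 160, 197 and 149 CPM in *Tarsl2*+/+ and at 211, 265 and 230 CPM in *Tarsl2*-/- mice. The genotypes did not overlap, and the means were 169 ± 25.2 and 235 ± 27.6 CPM (SD, n = 3). The log2 estimate of 0.48 was the largest of the mitochondrial members and did not pass the test (standard error 0.12, adjusted p = 0.0676). It passed with DESeq2 (adjusted p = 0.00621) and without *Tarsl2*+/+ mouse 584 (log2 fold change 0.61, adjusted p = 0.0200). *Dnaja3*, the matrix DnaJ partner of mortalin, was at 63.5, 75.0 and 59.6 CPM against 76.2, 82.4 and 80.8. The *Tarsl2*-/- mice were all above, mouse 588 narrowly (0.27, adjusted p = 0.157, and 0.38 with an adjusted p of 0.0496 without *Tarsl2*+/+ mouse 584), and *Vasn* lies within the same locus on the same strand. *Dnajc30* (0.28, adjusted p = 0.167) and *Dnajc11*, a protein of the cristae (0.23, adjusted p = 0.221), were above in all *Tarsl2*-/- mice as well.

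The J proteins of the inner membrane import motor are encoded by *Dnajc15* and *Dnajc19*. *Dnajc15* was at 274, 248 and 297 CPM in *Tarsl2*+/+ and at 220, 238 and 204 CPM in *Tarsl2*-/- mice. All *Tarsl2*-/- mice were below, with a log2 estimate of -0.31 (standard error 0.10, adjusted p = 0.122). *Dnajc19* was at 127, 127 and 135 CPM against 142, 140 and 128 and overlapped (0.074, adjusted p = 0.676). A processed pseudogene of *Dnajc19*, which may share reads with it, had a log2 estimate of 0.06 (adjusted p = 0.895).

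*Hspd1* and *Hspe1*, which share the interval printed above, had estimates of opposite sign. *Hspd1* was at 122, 115 and 119 CPM in *Tarsl2*+/+ and at 130, 147 and 123 CPM in *Tarsl2*-/- mice, with all *Tarsl2*-/- mice above (0.17, adjusted p = 0.333). *Hspe1* was at 408, 391 and 493 CPM against 392, 395 and 347, which overlapped (-0.19, adjusted p = 0.371). Their ratio was 0.298, 0.295 and 0.242 in *Tarsl2*+/+ and 0.332, 0.373 and 0.355 in *Tarsl2*-/- muscle. Of 20 other genes of mitochondrial folding, import and proteolysis, 15 were above 0 and 5 below 0 with a median log2 estimate of 0.082, 7 were above and 0 below without overlap (12.6% and 12.0% of all tested genes), and none was called. Among them *Trap1*, the HSP90 of mitochondria, had a log2 estimate of 0.23 (adjusted p = 0.244). The summed level of the mitochondrial members, which *Hspe1* and *Dnajc15* dominate, was 1276 ± 57.4 CPM (SD, n = 3) against 1284 ± 82.3 CPM and overlapped. *Hspb11*, which carries a heat shock protein symbol but encodes IFT25 of the ciliary transport complex, was at 20.4, 19.1 and 24.7 CPM against 17.0, 16.2 and 18.0. All *Tarsl2*-/- mice were below (-0.32, adjusted p = 0.152).

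The ratios of 4 pairs of members were set against each other with exact permutation tests, two-sided, in which a design of 3 and 3 mice reaches 0.1 at the lowest. The ratio of *Hsp90ab1* to *Hsp90aa1* had a mean of 8.12 ± 0.315 (SD, n = 3) in *Tarsl2*+/+ and 12.4 ± 2.56 in *Tarsl2*-/- muscle, a difference of 0.59 on the log2 scale (exact permutation p = 0.1). That of *Hspd1* to *Hspe1* was 0.278 ± 0.0313 and 0.353 ± 0.0207, a log2 difference of 0.35 (exact permutation p = 0.1). That of *Hspa1a* to *Hspa1b* was 0.377, 0.267 and 0.373 against 0.550, 0.868 and 0.538, a log2 difference of 0.93 (exact permutation p = 0.1) that rests on at most 69 counts of either gene per library. In these 3 pairs the *Tarsl2*-/- mice were all above the *Tarsl2*+/+ mice, and the p adjusted over the 4 pairs was 0.133 by exact permutation. The ratio of *Hspb2* to *Hspb3* was 2.20, 1.88 and 2.37 against 1.80, 1.60 and 2.07 and overlapped (exact permutation p = 0.2, adjusted p = 0.2).

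**Figure D4:**
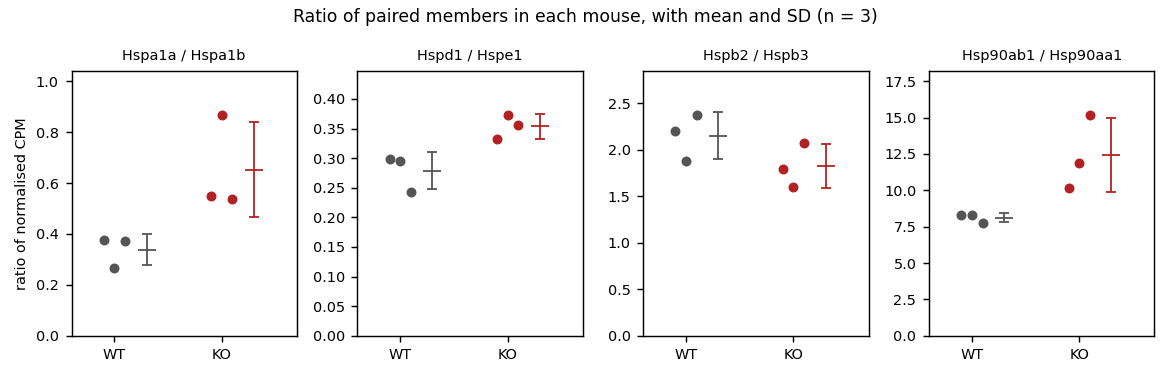
Ratio of the normalised CPM of 4 pairs of members in each mouse (vertical axis, starting at 0), with the mean and SD of the 3 mice of each genotype beside the points. The ratio of Hsp90ab1 to Hsp90aa1 is 7.76 to 8.32 in Tarsl2+/+ and 10.2 to 15.2 in Tarsl2-/- mice, and only Hspb2 to Hspb3 overlaps between the genotypes.

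The members that were neither called, nor among the highest levels or the smallest p of their compartment, nor in the set of inducible, ER and mitochondrial chaperones are given by their ranges. In the cytosol 27 of these were tested, with estimates between -0.48 and 0.25, of which 11 were above 0 and 16 below 0. The lowest was *Hspbap1*, at 1.78 to 3.68 CPM over the 6 mice (-0.48, adjusted p = 0.312). In the ER 7 were tested (-0.13 to 0.29), and the 5 of mitochondria lay between 0.074 and 0.28. Of the summed levels by compartment, that of the cytosol did not overlap. It was 3847 to 3987 CPM in *Tarsl2*+/+ and 4021 to 4079 CPM in *Tarsl2*-/- mice. Its means were 3922 and 4048 CPM, and *Hsp90ab1* alone differed between the genotypes by about as much. The separation of the sum therefore does not describe the other cytosolic members. The cilium, which is *Hspb11* alone, did not overlap either. The sum over all members was 5805 ± 129 CPM (SD, n = 3) and 5904 ± 67.2 CPM and overlapped.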

How the data were processed

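RNA libraries of muscle from 3 *Tarsl2*+/+ and 3 *Tarsl2*-/- mice were sequenced in pairs of reads. The study's methods name a kit for stranded mRNA libraries, whereas the sample records name another kit. According to the study's methods the authors mapped reads to mm10 with HISAT2 and analysed differential expression with DESeq2. They deposited raw read counts per gene with gene coordinates and lengths. The submitters' processing notes name Bowtie 0.12.2 and mm8 instead. The counting tool, annotation and use of strand are not given in the sources used here, so overlapping genes may share reads. Of the 74 members 38 overlapped another gene, and 18 did so on the same strand. A lack of molecular identifiers means that limits from counts cover counting error only.

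Genotypes were taken from the sample labels. The label of *Tarsl2*-/- mouse 589 begins with KOT, where those of the other *Tarsl2*-/- mice begin with KO, and the difference is not explained. Replicates are separate mice. Genes were filtered with filterByExpr (minimum count 10, minimum total count 15), normalised by TMM and tested with edgeR 4.0.16 (quasi-likelihood, genotype only) in R 4.3.3, with Benjamini-Hochberg adjustment over 15075 genes and a threshold of 0.05. The common biological coefficient of variation was 12.1%. Normalised CPM are counts scaled to the TMM-adjusted library size. Standard errors are the log2 fold change over the square root of F. Overlap of genotypes was read from normalised CPM. Exact permutation tests were run with scipy 1.17.1. The procedure was tested on simulated data whose changes were larger than the estimate of any member. That test does not show how often changes of the size seen here are found. Alternatives were DESeq2 1.42.0, limma 3.58.1 (voom), RLE and upper quartile scaling, no filter, at least 10 counts in every library, and each mouse left out.

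The members, lists and compartments were chosen with earlier results of these data known. Members named with values were those called, in each compartment the 4 with the highest level per length and the 2 with the smallest p in each direction, and a set of inducible, ER and mitochondrial chaperones. *Hspb7*, *Dnajb6*, *Dnaja2*, *Hspa4*, *Hspa4l*, *Dnajb14*, *Dnajc18*, *Dnajc19*, *Dnajc30*, *Dnajc11* and *Hspbap1*, and the list genes other than *Hsf1* and *Bag3*, were added after their values were seen. Protein sequences were not used here.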

Additional observations from a re-analysis of the deposited data

How the results depend on the processing

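The call of *Hspb8* held in 6 of 12 alternatives, namely DESeq2, limma-voom, RLE, upper quartile, no filter and at least 10 counts in every library, and in 0 of the 6 fits that left out a mouse. The number of members called was 1 in the main edgeR fit (filtered, all 6 mice) and 4 with DESeq2 (*Dnajc21*, *Hspa9*, *Hspb2* and *Hspb8*). It was 7 without a filter (these and *Dnaja4*, *Hsp90aa1* and *Hsph1*) and 0 to 3 when a mouse was left out. The 3 were *Dnaja3*, *Hspa9* and *Hspb2* without *Tarsl2*+/+ mouse 584. The fit without a filter gave every gene the spread of the trend. Over all genes, 342 calls became 719 with DESeq2 (4.77% of those tested), 1437 without a filter (5.62%) and 81 to 625 when a mouse was left out, lowest without *Tarsl2*+/+ mouse 583 and highest without mouse 584. The median log2 fold change of the mitochondrial members ranged from 0.104 (without *Tarsl2*-/- mouse 589) to 0.200 when a mouse was left out. With a mouse left out, the estimate of *Hspa8* ran from -0.050 to 0.038 and that of *Dnajb9* from -0.015 to 0.082. The sign changed for *Hspa8* without *Tarsl2*+/+ mouse 595 (0.023), *Tarsl2*-/- mouse 588 (0.0080) or 589 (0.038), and for *Dnajb9* without *Tarsl2*+/+ mouse 584 (-0.015). In all, 302 of the values of the named members under an alternative kept direction and side of the threshold. Of the others, 12 passed it where the main edgeR fit did not, 6 lost it and 4 changed sign. The level of *Dnajc15* per kb, 381 with the deposited length and 37.9 with GENCODE vM21, was compared after seeing the data. No paired analysis was possible because no mouse number occurs in both genotypes. The cause of these differences was not tested. With 3 mice a genotype, a log2 fold change of 0.40 (*Dnajc21*, standard error 0.10) still missed the threshold in the main edgeR fit.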

Other observations

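Of 13 rows of processed pseudogenes named after members, none had more than 175 counts in a library. Those of *Hspd1* that were tested, *Hspd1-ps3* and *Hspd1-ps4*, had log2 fold changes of -0.06 and -0.10, both with overlapping genotypes, and reads of *Hspd1* that fall on them could not be told apart here.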
